A study of Mus musculus with 19 samples.

Results

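mt-Th is the mitochondrial gene of the tRNA that carries histidine. It lies on the plus strand of chromosome MT at chrMT:11546-11612 of GRCm38 (the mm10 build) and is annotated as a tRNA gene of 67 bases. The reads described here are small RNA reads that matched mt-Th, followed by the CCA that is added to every tRNA, in the sense orientation (1 mismatch allowed), together with such reads that carried 1 or 2 extra bases before the annotated first base. There were 16135377 of them among 711662713 reads in 19 libraries, or 2.27% of all reads, and they comprised 36289 distinct sequences. mt-Th was chosen by its read counts, which were high in these libraries and differed between groups, so its levels are given as a description without a test.

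The libraries came from sperm of wild type male mice that received vehicle (control) or the phthalate DCHP by oral gavage for 4 weeks, beginning at 8 weeks of age. Control or DCHP status is that of the library names (control or treated), since the treatment field reads DCHP in all 19. PANDORA-seq was made from 4 control and 5 DCHP-exposed samples, and traditional RNA-seq, the standard small RNA protocol, from 5 control and 5 DCHP-exposed samples, each from RNA cut from a gel at 15 to 50 nt. For PANDORA-seq the RNA was treated with T4PNK, an enzyme that repairs the ends of RNA fragments so that adapters can be ligated, and with AlkB, an enzyme that removes certain methyl groups at which reverse transcription stops or misreads. The study describes its PANDORA-seq samples as biological replicates from mice. For the traditional libraries the sources used here do not say whether each came from its own animal, so p-values that involve them measure the spread between these libraries, which may be technical.

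Transfer RNAs are cut into tRNA-derived small RNAs (tsRNAs), which are abundant in sperm, and fragments of the 5′ side that end in or near the anticodon loop are among the best known. The tRNA for histidine is set apart from other tRNAs by an extra G placed before its first base, which marks it for the enzyme that loads histidine. Mitochondrial tRNAs often carry a methyl group on an A near the end of the acceptor stem (m1A at position 9), a modification that blocks or alters base pairing during reverse transcription and that AlkB can remove.

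The annotated gene with its CCA is shown to give the numbering used below, in which base 1 is the annotated first base. The capitals mark, from left to right, the A at base 8 (MT position 11553), the anticodon at bases 30 to 32 and the CCA at bases 68 to 70, which is not encoded in the gene.
mt-Th with CCA: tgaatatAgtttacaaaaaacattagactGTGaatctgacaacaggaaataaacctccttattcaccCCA

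The distinct sequences with the highest mean share of mt-Th reads in either method are shown next, since the ends and added bases described below can be read from them. Capitals at the start mark the added bases, and a capital within the sequence marks a mismatch to the gene.
1-42 with GG: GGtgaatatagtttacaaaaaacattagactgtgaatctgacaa
1-40 with GG: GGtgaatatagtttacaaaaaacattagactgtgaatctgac
1-43 with GG: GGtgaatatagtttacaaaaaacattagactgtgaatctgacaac
1-39 with GG: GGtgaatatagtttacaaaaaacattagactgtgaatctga
1-41 with GG: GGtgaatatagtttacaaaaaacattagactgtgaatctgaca
1-40 with GG A8T: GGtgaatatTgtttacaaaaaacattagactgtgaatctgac
7-43: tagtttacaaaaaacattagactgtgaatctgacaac
25-68: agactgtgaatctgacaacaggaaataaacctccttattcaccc
31-69: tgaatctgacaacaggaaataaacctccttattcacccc

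The first 5 of these differed only in the last base. In PANDORA-seq the commonest was 1-42 with GG, 44 nt long, which made up 39.5% ± 8.23 (SD, n = 4) of the mt-Th reads of control libraries and 43.1% ± 10.1 (n = 5) of DCHP libraries. In traditional RNA-seq the commonest was 1-40 with GG, 42 nt long, with 30.8% ± 1.06 (n = 5) and 31.9% ± 1.42 (n = 5). The 5 leading sequences of each method together held 51.1% to 69.02% of the mt-Th reads of a PANDORA-seq library and 53.3% to 58.9% of those of a traditional library. Among sequences without added bases, 7-43 held 2.07% ± 1.69 and 3.33% ± 2.11 in PANDORA-seq and 25-68 held 2.18% ± 1.55 and 2.35% ± 0.472, so that their order differed between control and DCHP libraries within their spread. In traditional RNA-seq 31-69 led these, at 0.444% ± 0.102 and 0.563% ± 0.238.

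Libraries held 21588335 to 56506344 reads, and 46948 to 2245259 of these were mt-Th reads. Counting error was therefore small beside the spread between libraries for the common fragments and ends. Rare shares, such as complete CCA ends or 5′ reads without added bases, rest on few reads in some PANDORA-seq libraries. Intervals are not given for single shares, since molecular identifiers were not used and an interval would cover counting error only. Within a group no 2 libraries held the same counts (36 pairs compared). PANDORA-seq control replicate 3 stood apart from the other PANDORA-seq libraries in where its mt-Th reads ended, and for group means that moved by over 1.5 times without it both values are given. Marker miRNAs of the tissue were read as hairpin reads per 1000 reads on miRNA hairpins. The 3 germ cell hairpins (Mir34b, Mir34c and Mir449a) summed to 0.0645 to 0.550 in PANDORA-seq and 0.735 to 5.94 in traditional libraries, and Mir449a was at 0 in some PANDORA-seq libraries of both groups. In the same units the 5 epididymal epithelium hairpins summed to 0.188 to 3.64 and 5.71 to 42.04, the 2 smooth muscle hairpins to 0.185 to 9.50 and 27.02 to 78.3, and the liver hairpin Mir122 to 0.314 to 12.1 and 12.5 to 414. The 4 blood hairpins summed to at most 0.0335 and 0.987. The median germ cell sum thus lay below the epididymal, smooth muscle and liver medians in each group, and the part of other cells in the mt-Th reads was not tested.

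Per 1000000 reads (RPM), PANDORA-seq control replicates 1 to 4 had 1846, 4778, 1109 and 4766 mt-Th reads, and PANDORA-seq DCHP replicates 1 to 5 had 15920, 6102, 15530, 13922 and 4567. Traditional control replicates 1 to 5 had 17279, 24972, 33106, 21067 and 60147 RPM, and traditional DCHP replicates had 52155, 29247, 42232, 54701 and 37765. In PANDORA-seq 4 DCHP libraries were above every control library and DCHP replicate 5 was within the control range, while the traditional groups overlapped widely. In bulk sperm RNA, fewer cells that hold a fragment and less of it in each cell cannot be told apart.

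Relative to 1000 reads on miRNA hairpins, the level was 131.7, 445, 83.7 and 355 in PANDORA-seq control and 1336, 575, 1270, 1138 and 389 in PANDORA-seq DCHP replicates. The group means were 254 ± 174 (SD, n = 4) and 942 ± 431 (n = 5), a 3.71-fold higher mean in DCHP libraries on this scale and 3.59-fold on the RPM scale. A marker sum also differed between these groups on the same scale, which does not show that it followed mt-Th from library to library. In PANDORA-seq the germ cell sum was 0.0645 to 0.0881 in control and 0.0922 to 0.550 in DCHP libraries, ranges that nearly met without overlap. The epididymal (0.188 to 0.616 and 0.332 to 3.64) and smooth muscle sums (0.185 to 1.33 and 0.408 to 9.50) overlapped. So did the liver (0.709 to 12.1 and 0.314 to 10.4) and blood sums (0.00527 to 0.0335 and 0 to 0.0251). How many of all hairpins kept these groups apart was not counted, so the germ cell sum has no background to be read against. Each germ cell hairpin alone did overlap between these groups. Mir34b was at 0.0175 to 0.0281 in control and 0.00848 to 0.0695 in DCHP libraries, and Mir34c at 0.0365 to 0.0705 and 0.0603 to 0.471. Mir449a was at 0 to 0.00132 and 0 to 0.00965. These are low counts beside the 283683 to 758477 hairpin reads of a PANDORA-seq library. The part of the marker sums in the difference of mt-Th levels was not tested. The traditional replicates had 342, 147.3, 423, 463 and 1081 in control and 1016, 564, 636, 671 and 358 in DCHP libraries. The traditional means of mt-Th were 491 ± 352 and 649 ± 238, a ratio of 1.32 with overlapping groups. Without traditional control replicate 5 this ratio was 1.89.

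Between methods the order of the levels turned with the scale. On the RPM scale every PANDORA-seq library lay below every traditional library, with a PANDORA-seq mean 0.0998 times the traditional mean in control and 0.259 times in DCHP libraries. Per 1000 hairpin reads the groups overlapped and these ratios were 0.517 and 1.45. Per read on narrow hairpins, those with at least 50% of their reads at 20 to 24 nt, the ratios were 13.2 and 38.7 and the methods did not overlap. PANDORA-seq libraries held 283683 to 758477 hairpin reads and traditional libraries 1119719 to 8830574. Of these, 7906 to 52401 in PANDORA-seq and 1027638 to 8657896 in traditional libraries were on narrow hairpins. Most hairpin reads of PANDORA-seq thus lay on other hairpins, and values per 1000 hairpin reads do not have a like basis in both methods.

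**Figure D1:**
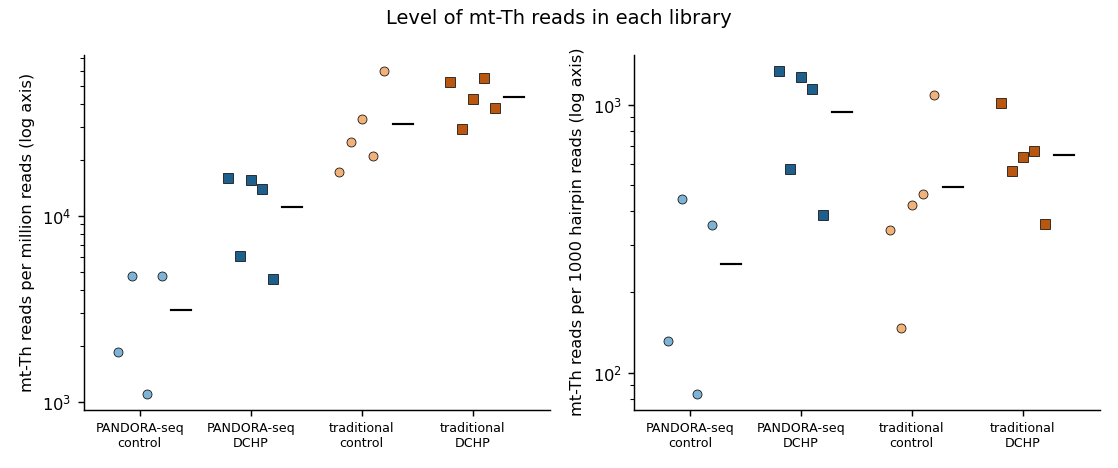
Each point is 1 library and the short bars are group means, on log axes, with the mt-Th level in RPM on the left and per 1000 reads on miRNA hairpins on the right. On the left all traditional libraries (17279 to 60147 RPM) sit above all PANDORA-seq libraries (1109 to 15920 RPM), and on the right the methods overlap.

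mt-Th reads dominated the reads of the 22 mitochondrial tRNAs, with 80.2% to 97.4% of them in PANDORA-seq control, 95.7% to 98.9% in PANDORA-seq DCHP, 96.4% to 98.8% in traditional control and 96.0% to 98.4% in traditional DCHP libraries. The mitochondrial tRNA next in level differed between methods. In PANDORA-seq it was mt-Te (glutamic acid), with means of 81.8 RPM in control and 83.5 RPM in DCHP libraries against 3125 and 11208 RPM for mt-Th. The control mean of mt-Te was 51.3 RPM ± 4.21 (n = 3) without replicate 3, at 173.5 RPM. In traditional libraries it was mt-Tq (glutamine), with 239.9 and 258.6 RPM against 31314 and 43220 RPM for mt-Th. As a description over the 19 libraries, the log2 levels of mt-Tt, mt-Tk and mt-Ts1 followed that of mt-Th most closely after each method was centred on its own mean, with Pearson r of 0.770, 0.750 and 0.658. Within a library these levels were all divided by the same hairpin total, and the part of that common divisor in r was not tested.

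Reads that began at base 1, or with added bases before it, are called 5′ reads. In every one of the 19 libraries between 99.75% and 99.96% of the 5′ reads carried 2 added bases, and the 2 bases were GG in 99.3% to 99.5% of 5′ reads. A single added base was rarer, with a mean over libraries of 0.0602% of 5′ reads for PANDORA-seq and 0.0366% for the traditional protocol. Reads that began exactly at the annotated first base made up 0.0510% ± 0.0176 of 5′ reads in PANDORA-seq control and 0.104% ± 0.0729 in PANDORA-seq DCHP libraries, and fewer in traditional libraries. The added pairs next in frequency were AG, at group means of 0.203% to 0.227%, GA at 0.0838% to 0.118% and TG at 0.0687% to 0.121%.

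Among exact reads of the 5′ end with any number of bases before it, 3 bases preceded the first base in 0.0733% to 0.106% by group mean, and 4 bases in none of the PANDORA-seq reads and in at most 0.00107% of the reads of a traditional library. Of the reads with 3 bases, 79.2% had CGG and 19.7% GGG. Nearly all 5′ ends thus lay exactly 2 bases before the annotated first base.

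The 5′ bases were set against the 3′ end of the gene by letter. Bases 1 to 6 faced bases 65 to 60 with 6 of 6 pairs, the inner added G faced the C at base 66 and the outer added G the C at base 67, the last base of the gene. With the inner G the acceptor stem had 7 pairs, the usual length of that stem, and the outer G came to lie opposite the base before the CCA. Counted from the inner G, the A at base 8 is position 9 of the tRNA. The annotated base at MT position 11544, the end of the neighbouring gene mt-Nd4, is T, so the outer G differed from it. The base at 11545 lies in no annotated transcript and was not read here.

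Added bases could be compared with those of few other mitochondrial tRNAs. None of the other 21 had 50 or more 5′ reads in every library. In traditional libraries 5 of them did, namely mt-Ts2, mt-Tl1, mt-Tq, mt-Ts1 and mt-Tk, and the share of 5′ reads with 2 added bases was 0.00927% in mt-Ts2 (serine), ranging from 0 to 0.0660%, and 0 in the other 4. A single added base was present on at most 0.150% of their 5′ reads by mean, again in mt-Ts2. mt-Te, with as few as 11 5′ reads in a library, had 2 added bases on 9.02% of 5′ reads by mean, ranging from 0 to 33.3% and mostly TT. In traditional libraries 60.1% to 94.8% of the reads of the 5 measured tRNAs were 5′ reads by mean, against 91.7% for mt-Th. The mean read length was 23.6 nt in mt-Tl1, 24.7 nt in mt-Tk, 25.1 nt in mt-Ts2, 26.2 nt in mt-Ts1 and 37.6 nt in mt-Tq. It was 40.8 nt in mt-Th.

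The shape of the fragments was described by 6 measures. They were tested for mt-Th together with the same measures of all mitochondrial tRNAs with at least 50 reads behind them in every library compared, by exact permutation of the libraries (two-sided, on the difference between means) with Benjamini-Hochberg adjustment over all of them. The measures were the share of 5′ reads, the share of 5′ reads with 2 added bases, the share of reads that ended at the last base of CCA, the share with a mismatch, the mean length, and the share of 5′ reads that ended within 4 bases of the anticodon (bases 26 to 36).

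No difference between DCHP and control libraries in the 6 measures was called at an adjusted p below 0.05 in either method. Over all mitochondrial tRNAs in PANDORA-seq, 0 of 34 measures passed (0% of those tested), and 1 of them had an unadjusted p below 0.05. In traditional libraries 0 of 88 passed (0%), and 2, neither of mt-Th, had an unadjusted p below 0.05. The smallest p that the exact permutation allowed was 0.00794, so 1 measure alone could not pass an adjustment over 34 or 88 measures. The lack of calls therefore does not show that the shape was unchanged. The share of 5′ reads was 56.6%, 71.8%, 86.6% and 63.1% in PANDORA-seq control replicates and 76.8%, 67.4%, 59.99%, 56.7% and 60.5% in DCHP replicates, with means of 69.5% ± 12.98 (n = 4) and 64.3% ± 8.02 (n = 5). The groups overlapped, and the difference of -5.21 percentage points (adjusted p = 0.837 by exact permutation) became 0.476 without control replicate 3. In traditional libraries the share was 91.3% ± 0.657 in control and 92.2% ± 0.983 in DCHP libraries (n = 5 each, adjusted p = 1 by exact permutation).

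The measure of mt-Th with the lowest p for exposure was the share of 5′ reads ending near the anticodon in PANDORA-seq. It was 1.73% ± 1.74 (n = 4) in control and 0.555% ± 0.212 (n = 5) in DCHP libraries, with an unadjusted exact permutation p of 0.0317 and an adjusted p of 0.738. Control replicate 3 was at 4.32% and the other 3 control libraries at 0.643% to 1.11%, and without replicate 3 the difference of -1.17 percentage points shrank to -0.307, with a control mean of 0.862% ± 0.233 (n = 3). In traditional libraries the same share was 7.18% ± 1.11 in control and 9.67% ± 2.67 in DCHP libraries (adjusted p = 1 by exact permutation). The effect of DCHP did not differ between methods at an adjusted p below 0.05 in any of the 6 measures (over all tRNAs 0 of 34 measures, 0%, with an unadjusted p below 0.05 in 1). For the share ending near the anticodon, the PANDORA-seq effect minus the traditional effect was -3.66 percentage points (unadjusted permutation p = 0.0337, adjusted p = 0.640).

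**Figure D2:**
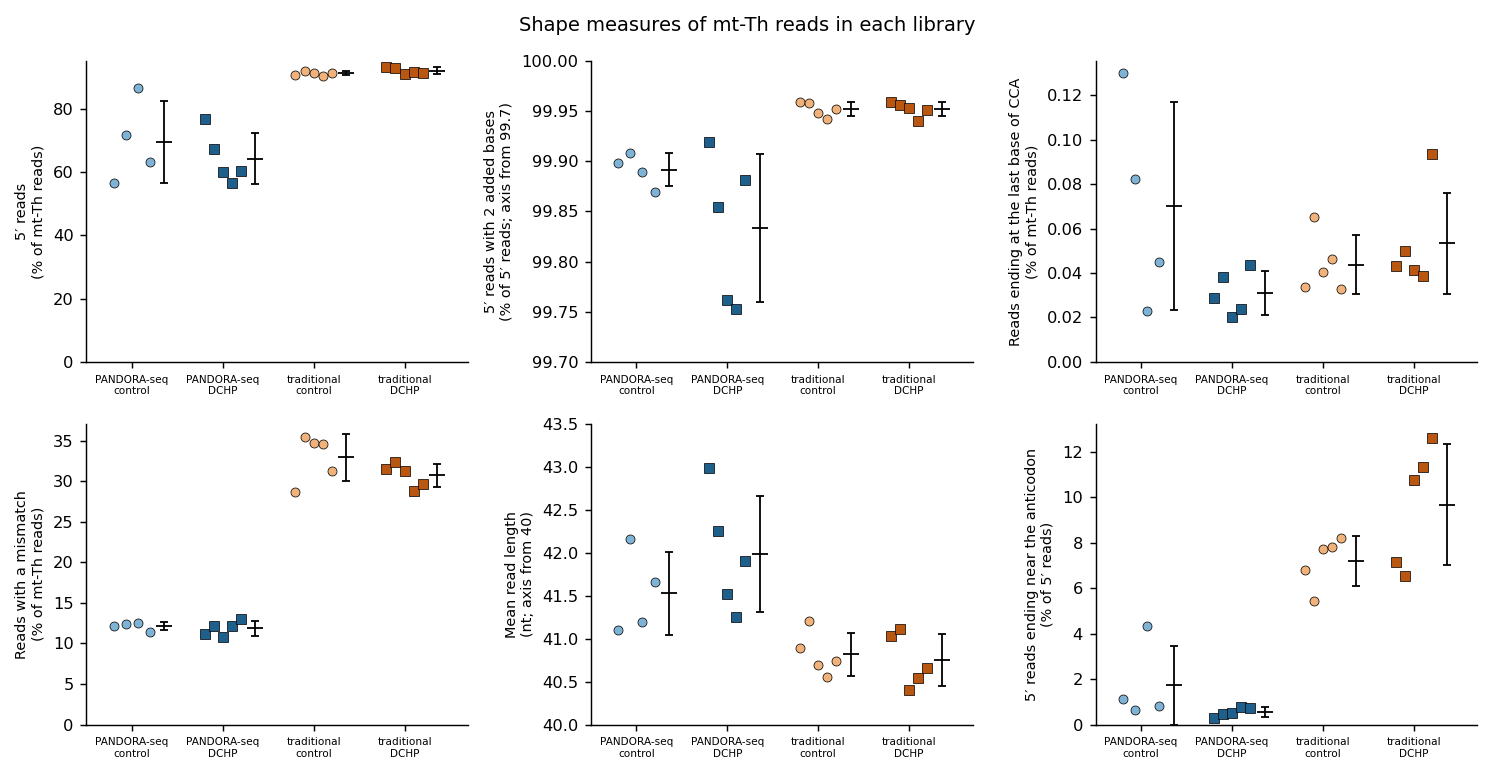
Each point is 1 library, and the bars give the group mean with its SD (n = 4 for PANDORA-seq control, 5 for the others) for the 6 shape measures, in percent or in nt. The methods do not overlap in the share of 5′ reads, the share with a mismatch or the share ending near the anticodon, while control and DCHP libraries of a method overlap in the share of 5′ reads.

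The method of library preparation, in contrast, went with large differences in shape. In control libraries 4 of the 6 mt-Th measures were called, beside 55.9% of the 34 measures over all mitochondrial tRNAs, and in DCHP libraries 5 of 6, beside 60% of 50. The count for mt-Th was thus near the background. In the 5 pairs of DCHP libraries with the same replicate number, which deviated together, the test with the pairs as a block called 0 measures, each of the 5 having p = 0.0625 (the smallest that 5 pairs allow in an exact permutation) and an adjusted p of 0.0977. In control libraries the unpaired calls had an adjusted p of 0.0150 and were lost without traditional control replicate 1, 3 or 4, where 4 libraries against 4 left an adjusted p of 0.0511, with differences of the same sign.

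5′ reads made up a smaller share of mt-Th reads in PANDORA-seq, 69.5% against 91.3% in control libraries (a difference of -21.8 percentage points, adjusted p = 0.0150 by exact permutation) and 64.3% against 92.2% in DCHP libraries (-27.9, adjusted p = 0.0173, and 0.0977 in pairs). All 9 PANDORA-seq libraries (56.6% to 86.6%) lay below all 10 traditional libraries (90.6% to 93.3%). The share of 5′ reads with 2 added bases was lower in PANDORA-seq by 0.0606 and 0.118 percentage points (adjusted p = 0.0150 and 0.0173 by exact permutation), a small difference beside values of at least 99.75%. In control libraries its sign turned when each distinct sequence was counted once.

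The last bases of the 5′ reads differed in place between methods. In PANDORA-seq the commonest was base 42, at 74.9%, 78.2%, 38.4% and 74.9% of 5′ reads in control replicates 1 to 4 and 86.3%, 78.0%, 75.7%, 66.7% and 69.2% in DCHP replicates 1 to 5. Base 40 took 11.46%, 7.50%, 40.4% and 13.1% in the same control replicates and 4.66% to 14.4% in DCHP libraries. Base 43, the last that a read with 2 added bases could reach, took 4.11% to 9.28% in control and 4.12%, 8.70%, 16.1%, 17.9% and 8.94% in DCHP replicates 1 to 5, and its DCHP mean of 11.2% ± 5.72 was above that of base 40 (8.61% ± 3.82) within their spread. In control replicate 3 the ends at 40 and 42 were thus about equally common, and in the other 8 PANDORA-seq libraries the end at 42 was the more common by far.

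In traditional libraries base 40 was the last base of 52.0% to 55.5% of 5′ reads in control and 49.0% to 54.9% in DCHP libraries. Base 42 took 9.37% to 13.1% and 9.37% to 11.6%, base 39 took 9.65% to 11.9% and 8.85% to 11.4%, and base 41 took 8.39% to 9.75% and 7.96% to 9.59%. Reads ending at 40 were 3.96 to 5.92 times as many as those ending at 42 in traditional libraries and 0.0616 to 1.05 times as many in PANDORA-seq libraries. These ends were picked after their values were seen and are given without a test.

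The anticodon stem was located by letter. Bases 23 to 27 faced bases 39 to 35 with 5 of 5 pairs (G with T counted as a pair), so the ends at 40 to 43 lay directly past the stem (MT positions 11585 for base 40 and 11587 for base 42) and not in the anticodon loop. 5′ reads that did end within 4 bases of the anticodon were scarcer in PANDORA-seq, 1.73% against 7.18% in control and 0.555% against 9.67% in DCHP libraries (adjusted p = 0.0150 and 0.0173 by exact permutation, and 0.0977 in DCHP pairs). Without PANDORA-seq control replicate 3 the PANDORA-seq libraries held 0.275% to 1.11% and the traditional libraries 5.42% to 12.6%, led by the end at base 31 in the anticodon, at 2.83% ± 0.485 of 5′ reads in control and 3.86% ± 1.22 in DCHP libraries (n = 5 each).

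**Figure D3:**
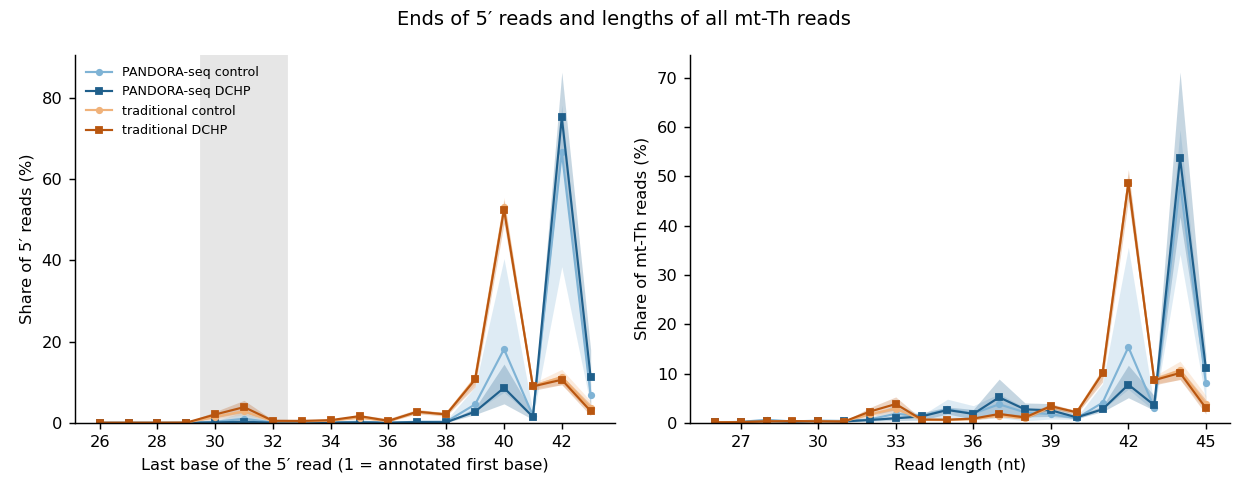
Lines are group means and shaded bands the lowest to highest library, with the last base of 5′ reads on the left (in % of 5′ reads, anticodon in grey) and the length of all mt-Th reads on the right (in % of mt-Th reads). PANDORA-seq peaks at base 42 and 44 nt, and traditional RNA-seq at base 40 and 42 nt; the wide band of PANDORA-seq control at base 40 reaches up to replicate 3 at 40.4%.

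Read lengths followed these ends. Reads of 44 nt made up 48.6% ± 10.6 of mt-Th reads in PANDORA-seq control, 53.7% ± 11.3 in PANDORA-seq DCHP, 10.7% ± 1.59 in traditional control and 10.1% ± 0.868 in traditional DCHP libraries. Reads of 42 nt made up 15.4% ± 13.6, 7.74% ± 2.49, 48.7% ± 1.201 and 48.7% ± 2.60 in the same order. The first of these rested on PANDORA-seq control replicate 3, at 35.6%, and was 8.61% ± 1.69 (n = 3) without it. The mean length was 41.5 ± 0.483 nt in PANDORA-seq control against 40.8 ± 0.251 nt in traditional control libraries, which missed the threshold (adjusted p = 0.0540 by exact permutation) but passed it when only exact matches were read (adjusted p = 0.0166 by the same permutation). In DCHP libraries it was 41.98 ± 0.673 nt against 40.7 ± 0.306 nt (adjusted p = 0.0173 by exact permutation, 0.0977 in pairs). The deposited reads stop at 45 nt, so that a read with 2 added bases could not end past base 43, and longer 5′ fragments or whole mt-Th tRNAs were outside what these data show. Reads of 45 nt were 8.00% ± 2.70 and 11.0% ± 2.57 of mt-Th reads in the PANDORA-seq groups and 3.83% ± 1.17 and 2.99% ± 1.06 in the traditional groups.

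The reads that were not 5′ reads began at many places. In PANDORA-seq the commonest inner start by mean was base 25, within the 5′ strand of the anticodon stem, at 7.55% ± 5.54 of mt-Th reads in control libraries and 6.99% ± 0.967 in DCHP libraries. Base 7 followed with 4.26% ± 3.27 and 6.29% ± 3.65, then base 15 with 2.81% ± 1.15 and 3.81% ± 0.673, while base 17 held 1.62% ± 0.590 and 2.30% ± 1.09. Bases 5, 10, 16 and 18 held 1.05% to 1.66% in control and 1.73% to 2.24% in DCHP libraries by mean. In traditional libraries base 25 held 0.819% ± 0.128 and 0.621% ± 0.0876 and base 7 held 0.0815% ± 0.0264 and 0.0857% ± 0.0746, the latter being 0.0538% ± 0.0252 (n = 4) without DCHP replicate 4, at 0.213%. The commonest inner start there was base 31, the second base of the anticodon, with 1.57% ± 0.313 in control and 2.07% ± 1.03 in DCHP libraries, against 0.947% ± 0.931 and 0.442% ± 0.110 in PANDORA-seq, where the control mean was 0.531% ± 0.509 (n = 3) without replicate 1, at 2.196%.

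The start at base 31 and the end at base 31 were thus both at the anticodon. The inner starts of PANDORA-seq were spread over libraries, base 25 ranging from 0.790% in control replicate 3, a level within the traditional range of 0.534% to 0.995%, to 14.04% in control replicate 1.

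Far 3′ ends had higher means in PANDORA-seq as a share of all mt-Th reads, of which 5′ reads were a smaller part. Base 59 was the last base of 4.04% ± 2.69 and 4.65% ± 1.68 of mt-Th reads in the PANDORA-seq control and DCHP groups, against 0.644% ± 0.0258 and 0.636% ± 0.109 in the traditional groups. Base 68, the first C of the CCA, ended 3.42% ± 2.47 and 3.34% ± 0.596 against 0.436% ± 0.0616 and 0.544% ± 0.279. Base 69, the next C, ended 2.72% ± 1.996 and 1.96% ± 0.413 against 0.674% ± 0.144 and 0.810% ± 0.301. PANDORA-seq control replicate 3, with 0.823%, 0.392% and 0.427% at bases 59, 68 and 69, lay just above the traditional libraries at base 59 (0.521% to 0.810%), among them at base 68 (0.340% to 1.02%) and below them at base 69 (0.543% to 1.34%). Among the reads that were not 5′ reads, bases 59 and 68 kept higher means in PANDORA-seq (11.9% and 9.72% in control and 13.3% and 10.02% in DCHP libraries, against 7.44% and 5.05% and 8.12% and 6.88%). Base 69 was about equal in control libraries, at 7.90% ± 3.805 against 7.85% ± 2.22, and lower in PANDORA-seq in DCHP libraries, at 5.802% ± 2.12 against 10.3% ± 3.11. Base 60 ended 1.78% and 2.40% of all mt-Th reads in PANDORA-seq control and DCHP libraries, against 0.616% and 0.601%. Among the reads that were not 5′ reads it had slightly lower means in PANDORA-seq, 6.57% and 6.60% against 7.16% and 7.63%. The inner starts and far ends are given without a test.

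**Figure D4:**
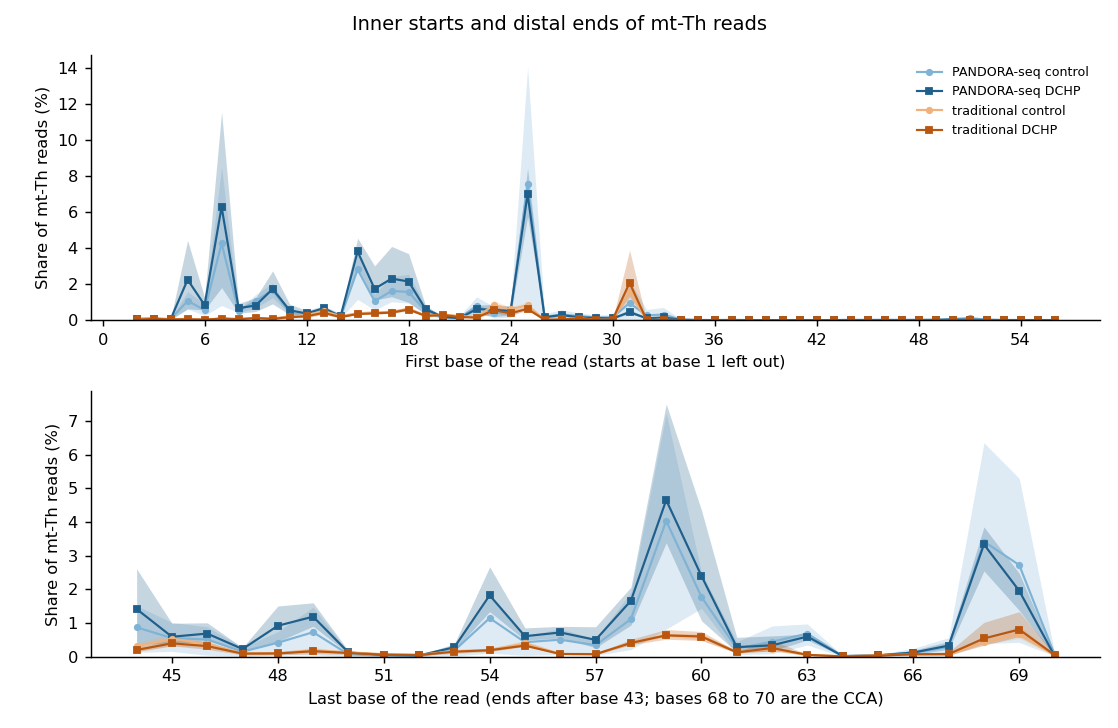
Lines are group means and bands the lowest to highest library, in % of mt-Th reads, for reads that began after base 1 (top) and for reads that ended after base 43 (bottom). PANDORA-seq has peaks of starts at bases 7 and 25 and of ends at bases 59, 68 and 69, where the traditional groups stay below 1% by mean, and the traditional groups have their highest inner start at base 31.

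Reads that reached the last base of the CCA were rare in all groups, at 0.0700% ± 0.0469 in PANDORA-seq control, 0.0310% ± 0.00978 in PANDORA-seq DCHP, 0.0436% ± 0.0133 in traditional control and 0.0533% ± 0.0228 in traditional DCHP libraries. The methods did not differ in this share at an adjusted p below 0.05 (adjusted p = 0.335 in control and 0.0744 in DCHP libraries by exact permutation). A read of 45 nt must begin at base 26 or later to show the whole CCA, so the common fragment that began at base 25 could not.

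Because of that limit, tails were also read on exact fragments that began at base 29 or later and reached the last base of the gene, 208 to 26976 reads per library. CC was the commonest tail in 3 groups, at 46.8% ± 7.31 in PANDORA-seq control, 49.7% ± 2.32 in traditional control and 48.2% ± 2.43 in traditional DCHP libraries. In PANDORA-seq DCHP libraries C alone was the commonest, at 47.8% ± 4.93, with CC at 34.6% ± 7.03. The PANDORA-seq groups overlapped in both tails. C ranged from 22.6% to 43.7% in control and 42.6% to 55.7% in DCHP libraries, and CC from 40.3% to 54.8% and 26.1% to 42.1%. The library with only 208 such reads was a PANDORA-seq control. A complete CCA ended 2.92% ± 0.998, 2.05% ± 0.448, 2.92% ± 0.537 and 2.93% ± 0.512 of these fragments in PANDORA-seq control and DCHP and traditional control and DCHP libraries. A CCA followed by more bases was found on 10.3% ± 4.02, 8.35% ± 2.41, 8.18% ± 1.04 and 7.35% ± 2.19, and most of these continued with C (CCAC, 42.1% of them in PANDORA-seq and 40.5% in traditional libraries) or CC (CCACC, 22.1% and 26.1%). Such longer tails do not belong to the mt-Th reads counted elsewhere, and the tails are given without a test.

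Mismatches to the gene were carried by 12.1% ± 0.484 of mt-Th reads in PANDORA-seq control, 11.9% ± 0.899 in PANDORA-seq DCHP, 32.9% ± 2.88 in traditional control and 30.7% ± 1.44 in traditional DCHP libraries. PANDORA-seq libraries ranged from 10.7% to 12.98% and traditional libraries from 28.6% to 35.5%, without overlap. The difference was -20.8 percentage points in control (adjusted p = 0.0150 by exact permutation) and -18.9 in DCHP libraries (adjusted p = 0.0173, and 0.0977 in pairs).

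The mismatch rate was then compared between methods at every base of the mitochondrial tRNAs that at least 100 reads covered in each library compared, not counting a mismatch on the first or last base of a read. In control libraries 26 of 68 tested bases of mt-Th were called, beside 21.8% of the 188 bases of all tRNAs, and 24 of the 26 had the lower rate in PANDORA-seq (beside 20.2% of the 188 bases). In DCHP libraries 33 of 68 were called beside 20.6% of 267, and 30 of the 33 had the lower rate in PANDORA-seq (beside 19.1%). mt-Th, itself included in these totals, thus supplied 26 of the 41 and 33 of the 55 called bases. It was covered far more deeply than the other tRNAs, whose bases could enter with 100 reads. The part of this depth in its called bases was not tested. With the DCHP pairs as a block 0 bases were called, since the smallest possible p was 0.0625, and in control libraries 0 were called when any 1 library was left out, where the smallest possible p was 0.0179 or 0.0286. In DCHP libraries 0 were called when any 1 PANDORA-seq library was left out and 27 to 33 when any 1 traditional library was left out. The 26 and 33 bases had differences of the same sign whichever library was left out. Apart from base 8, group mean rates lay between 0.0529% and 3.65%.

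Base 8, an A in the gene, had the highest rate by far. In traditional libraries 11.3%, 21.7%, 21.01%, 21.9% and 16.8% of covering reads differed there in control replicates 1 to 5 and 16.6%, 17.4%, 18.4%, 14.9% and 13.7% in DCHP replicates. In PANDORA-seq the rate was 3.11%, 2.79%, 1.61% and 1.93% in control and 1.28%, 2.01%, 1.82%, 1.95% and 2.24% in DCHP replicates. The methods did not overlap, the lowest traditional library being at 11.3% and the highest PANDORA-seq library at 3.11%.

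The difference at base 8 was -14.3 percentage points in DCHP libraries (16.2% ± 1.91 in traditional and 1.86% ± 0.358 in PANDORA-seq, adjusted p = 0.0385 by exact permutation, and 0.162 in pairs). In control libraries it was -16.2 (18.5% ± 4.54 and 2.36% ± 0.703) and just missed the threshold (exact permutation p = 0.0159, adjusted p = 0.0515). Left out 1 library at a time, the adjusted p in control libraries was 0.0673 to 0.0881, and in DCHP libraries 0.0385 to 0.0670, where the call was lost when any 1 PANDORA-seq library was left out, with differences of -14.2 to -14.4 percentage points. With at least 2 reads per sequence the control comparison passed (adjusted p = 0.0460 by exact permutation), and with each distinct sequence counted once the differences shrank to -3.76 in control and -4.29 in DCHP libraries. These rates are of reads with at most 1 mismatch, and reads that also differed elsewhere were not counted.

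The base read in place of the A also differed between methods. A8T was the commonest change in traditional libraries, in 10.7% ± 2.37 and 9.45% ± 0.998 of covering reads, followed by A8G in 7.69% ± 2.19 and 6.60% ± 0.930. In PANDORA-seq A8G led with 1.503% ± 0.192 and 1.37% ± 0.357, and A8T held 0.825% ± 0.527 and 0.458% ± 0.230. A8C was at most 0.185% in any library. The ratio of A8G to A8T was 0.623 to 0.801 in the 10 traditional libraries and 1.23 to 5.82 in the 9 PANDORA-seq libraries, a description without a test. The A8T form of the 42 nt fragment was the sequence of mt-Th with the fourth highest mean share in traditional libraries, with 5.57% ± 1.11 and 4.91% ± 0.565 of mt-Th reads, and held 0.147% ± 0.0229 and 0.0743% ± 0.0442 in PANDORA-seq.

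**Figure D5:**
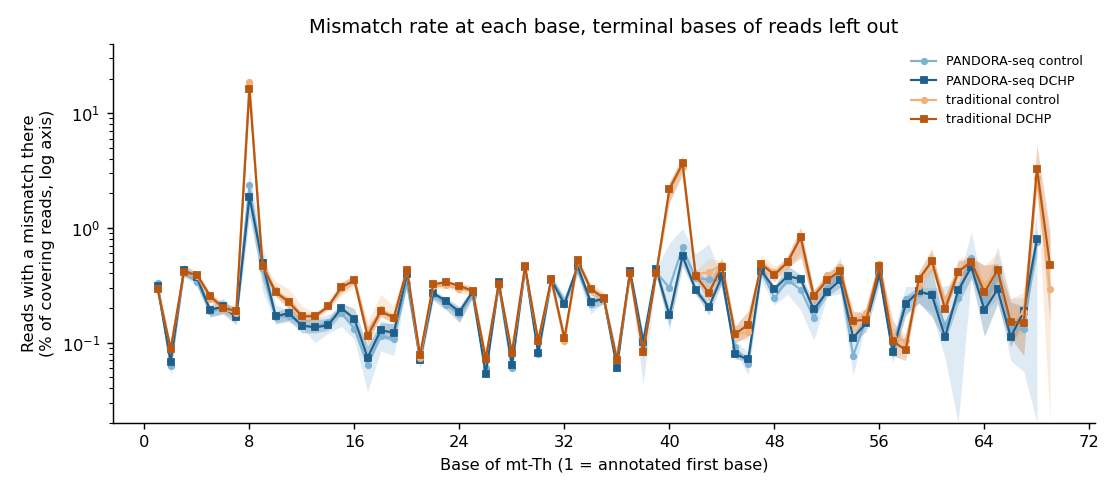
Lines are group means and bands the lowest to highest library of the share of covering reads with a mismatch at each base of mt-Th, on a log axis (bands that reach 0 stop at the foot of the axis). Base 8 stands above all others in the 4 groups, at 16.2% to 18.5% by mean in traditional and 1.86% to 2.36% in PANDORA-seq libraries, and bases 40, 41 and 68 are raised in the traditional groups. Base 68 is also the next highest in PANDORA-seq, at 0.755% in control and 0.800% in DCHP libraries by mean.

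Most other mismatches that set the methods apart were at the 3′ end of reads. Among 5′ reads that ended at base 43, 32.4% ± 3.76 in traditional control and 32.3% ± 7.02 in traditional DCHP libraries ended in A in place of the gene's C (C43A), against 4.06% ± 2.54 and 2.63% ± 2.42 in PANDORA-seq, the latter being 1.64% ± 1.08 (n = 4) without DCHP replicate 5, at 6.62%. Among those that ended at base 40, 6.59% ± 0.990 and 6.54% ± 0.618 had C40A as the last base, against 3.11% ± 0.526 and 3.88% ± 0.261. A41C, which makes a read that ends at base 42 end in the letters CCA, was carried by 4.51% ± 0.278 and 4.83% ± 0.867 of such reads in traditional libraries, against 0.224% ± 0.197 and 0.145% ± 0.0923 in PANDORA-seq, where the control mean was 0.126% ± 0.00808 (n = 3) without replicate 3 at 0.520%. Mismatches on the last base of a read were on 4.12% to 6.36% of mt-Th reads in traditional and 0.938% to 2.64% in PANDORA-seq libraries. Mismatches at neither base 8 nor the last base were on 10.2% to 12.0% of reads in traditional and 8.51% to 9.22% in PANDORA-seq control libraries, which did not overlap, and on 9.87% to 11.2% and 8.27% to 10.05% in DCHP libraries, which did.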

How the data were processed

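Per the labels, small RNA of mouse sperm was sequenced in 19 libraries. The authors deposited, for each library, counts of each distinct cleaned read of 15 to 45 nt, without normalization, and the submitters' processing notes name mm10. The study's methods name SPORTS1.1, run with 1 mismatch allowed, for the analysis and annotation of the raw reads. The adapter settings are not given in the sources used here.

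From these counts, each read was matched without gaps, sense strand, at most 1 mismatch, to 22 mitochondrial tRNA genes of GENCODE (GRCm38) with CCA, allowing 1 or 2 bases before base 1. Reads that also matched any of 2198 miRNA hairpins or an rRNA (8 mt-Th reads in all) were left out. Levels were divided by all hairpin reads or by all reads. Group means were compared by an exact permutation of the libraries, two-sided, and p was adjusted (Benjamini-Hochberg) over all tRNAs and measures, or all bases, of a comparison. With 4 against 5 or 5 against 5 libraries, the smallest p is 0.00794. Scripts ran in Python 3.11.15 with numpy 2.4.6 and were tested on simulated data.

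The study states that sperm RNA of control and DCHP-exposed sires went through both methods, but not which libraries share a sample. Replicate numbers were checked for pairing over 10063 sequences with at least 10 reads in every library. DCHP libraries of the same number in both methods deviated together in 5 of 5 pairs (r = 0.130 to 0.436), and 4 of the 5 correlated best with their own number. They were taken as paired from the data alone. Control libraries between methods (3 of 4 pairs over 0.1) and control and DCHP libraries within PANDORA-seq (1 of 4) or traditional RNA-seq (2 of 5) were not.

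The gene, the measures, the positions and the lists were chosen with earlier results of these data known. Named fragments were the 5 commonest by mean share in each method and the commonest without added bases. Start and end positions had a mean share of at least 1% in a group, and not every such position is named. Other tRNAs were named for added bases, level or likeness of level (log2 of hairpin-scaled level plus 0.1). Alternatives were exact matches, at least 2 reads per sequence, reads of at least 18 nt, no class order, each sequence counted once, logit shares, a replicate block and leaving out each library.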

Additional observations from a re-analysis of the deposited data

Results flagged for a closer look

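Over 26 measures in 4 groups of 4 or 5 libraries, Dixon's test set 12 values apart from the others of their group, in 104 groups of values tested. Chance does so in about 1 in 20 groups, and the measures overlap in the reads they count. In PANDORA-seq control replicate 3, 40.4% of 5′ reads ended at base 40 (7.50% to 13.1% in the other 3 libraries), 38.4% at base 42 (74.9% to 78.2%), 8.87% at base 39 (2.87% to 3.33%) and 4.32% near the anticodon (0.643% to 1.11%). In the same library 35.6% of mt-Th reads had 42 nt (6.79% to 10.1%), 0.520% of 5′ reads ending at base 42 carried A41C (0.121% to 0.135%), and mt-Th made up 80.2% of mitochondrial tRNA reads (94.5% to 97.4%). In traditional DCHP replicate 5, 0.0935% of mt-Th reads ended at the last base of CCA (0.0386% to 0.05005% in the other 4), 1.02% ended at base 68 (0.340% to 0.535%) and 1.34% at base 69 (0.602% to 0.752%), and 8.85% of 5′ reads ended at base 39 (10.7% to 11.4%). In traditional control replicate 2, 0.920% ended at base 69 (0.543% to 0.648%). The causes were not tested.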

How the results depend on the processing

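For DCHP against control, the level fold kept its direction under all alternatives (3.03 to 4.95 in PANDORA-seq, 1.12 to 1.89 in traditional libraries when 1 library was left out), and no shape measure was called under any of them. The smallest p that the exact permutation allowed was 0.00794 or higher, too high for 1 measure alone to pass an adjustment over 34 or 88. The lack of calls is therefore no sign of an unchanged shape. Uncalled differences changed sign in places. In PANDORA-seq the mismatch share was 0.327 percentage points higher in DCHP libraries with at least 2 reads per sequence and 10.1 with each distinct sequence once, and the difference in 5′ reads was -9.53 to 0.476 with 1 library left out. In traditional libraries exact matches gave 0.000520 for 2 added bases, each distinct sequence once gave 0.279 for mismatches and 0.0384 nt for mean length, and leaving out 1 library gave -0.00243 to 0.00291 for 2 added bases, -0.000330 to 0.0151 for CCA ends and -0.157 to 0.0302 nt for mean length.

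Between methods, each distinct sequence once gave 3 called measures in DCHP libraries and, in control libraries, a difference of 1.19 in 2 added bases, the one called measure that turned its sign. The longer mean length of PANDORA-seq control reads passed the threshold under 5 alternatives other than leaving out a library (adjusted p = 0.0166 to 0.0469 by exact permutation). The replicate block called 0 measures and 0 bases in both comparisons, where 4 and 5 pairs allow no p under 0.125 and 0.0625; in control libraries, whose numbers were not taken as pairs, this is no sign of a weaker effect. Of the control libraries, 3 of 4 correlated best with their own number. With 1 library left out, 0 to 5 measures and 0 bases were called in control libraries, and 0 to 33 bases in DCHP libraries. At least 2 reads per sequence gave 42 called bases in control, and each distinct sequence once 17 in DCHP libraries.

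The level ratio of PANDORA-seq to traditional RNA-seq was 0.0998 and 0.259 in control and DCHP libraries per total read, and 13.2 and 38.7 per read on narrow hairpins (at least 50% of reads of 20 to 24 nt). Per hairpin read it was 0.517 and 1.45 for all mt-Th reads, and 1.89 and 6.64 for those without added bases. Depth limits the common fragments little, as mt-Th had at least 46948 reads per library, but rare shares rest on few reads. The 45 nt limit of the reads hides longer fragments. The causes of these changes were not tested.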
